A study of Chlamydomonas reinhardtii with 5 samples.

Results

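The 9 genes described here belong to the chloroplast chaperone and unfolded-protein response of the unicellular green alga Chlamydomonas reinhardtii. They were chosen by locus, under a rule that uses no level or fold change, out of 17742 genes counted by RNA-Seq. The choice was made with earlier results of these data known, so that it was not independent of them. Numbers of the 9 genes set against shares of all genes are therefore descriptions. The 9 loci were VIPP1 (CHLRE_13g583550v5), VIPP2 (CHLRE_11g468050v5), HSP22C (CHLRE_03g145787v5), HSP22E (CHLRE_14g617450v5), HSP22F (CHLRE_14g617400v5), HSP70B (CHLRE_06g250100v5), CLPB3 (CHLRE_02g090850v5), DEG1C (CHLRE_12g498500v5) and MARS1 (CHLRE_16g692228v5). All 9 were counted in every library, with 566 counts as the lowest and 24562 as the highest value, and all 9 passed the filter on low counts. The names are those attached to the loci when they were chosen, because the reference lists only the locus tag.

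Wild-type cells of strain CC-125 in the mid-exponential phase, grown in acetate medium under constant light, received γ-rays of 6 Gy (GR6) or 50 Gy (GR50), X-rays of 6 Gy (XR6) or 50 Gy (XR50), or no radiation (mock). Each condition had 1 column of counts, here called a library, so that no value below carries a replicate error. The Materials and Methods describe biological replicates from different batches, and whether a column is 1 replicate or a pool is not given in the sources used here. γ-irradiation from a 60Co source took 1 h at both doses in tubes of culture that was not concentrated, whereas cells for X-irradiation were concentrated into small tubes and exposed for 22.2 min at 1 mA (6 Gy) or 8.1 min at 10 mA (50 Gy). The radiation type therefore went with the handling, the exposure time and the dose rate and cannot be told apart from them. The dose of X-rays went with the tube current and the exposure time. As γ-irradiation took 1 h at both doses, the dose of γ-rays went with the dose rate. How the mock was handled and how long after irradiation RNA was taken are not given in the sources used here.

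In Chlamydomonas, damaged or misfolded proteins in the chloroplast set off a signal to the nucleus that raises chaperones and proteases destined for the chloroplast. Small heat shock proteins hold unfolding proteins, HSP70 and ClpB proteins refold and disaggregate them with ATP, and proteases remove what cannot be rescued. VIPP proteins assemble on the thylakoid and inner envelope membranes, and the kinase MARS1 is required for the signal.

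Transcripts of the 9 genes together made up 0.435% of the reads counted on genes in GR6 and 0.532% in GR50, and 0.370% in XR6 and 0.302% in XR50, against 0.257% in the mock. These shares are of unscaled library totals, which place XR6 0.21 higher against the mock on the log2 scale than the scaling used below. In GR50, HSP22E and HSP22F gave 24562 and 23298 of the 108248 counts, and their level is less certain, as given below. After γ-irradiation, VIPP2, HSP22E, HSP22F and DEG1C were above 2 times the mock level at both doses. After X-irradiation, 0 of the 9 genes were above 2-fold, against 8.61% of all genes in XR6 and 6.67% in XR50, and 0 were below it, against 5.13% and 5.0%, so that hardly any would be counted among 9 genes at these shares. VIPP1, VIPP2, HSP22E, HSP22F, DEG1C and MARS1 were higher after γ-rays than after X-rays in a test over the 4 irradiated libraries. HSP22C was the only one of the 9 with a dose effect, and that effect lay almost wholly in the step from GR6 to GR50. HSP70B and CLPB3 showed neither a dose nor a type effect that passed the test.

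**Figure D1:**
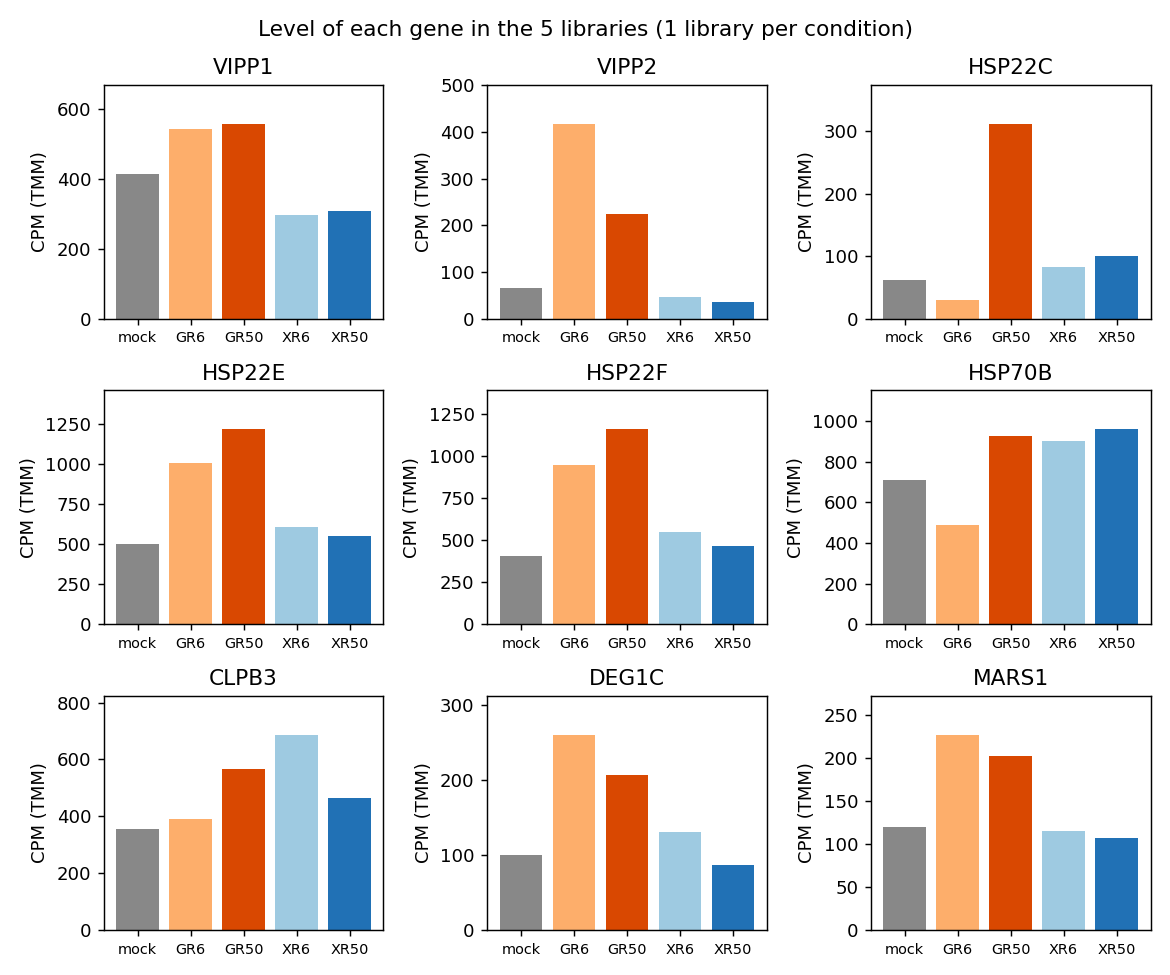
Level of each of the 9 genes in CPM (counts scaled to a common library total) after TMM scaling in the mock, GR6, GR50, XR6 and XR50 libraries, 1 bar per library and without error bars because there was 1 library per condition. VIPP2 reached 417 CPM in GR6 against 66.0 CPM in the mock, and HSP22C reached 312 CPM in GR50 against 29.4 CPM in GR6.

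Levels are given in CPM with the TMM normalization of edgeR, which corrects the library totals for composition. A fold change is the log2-transformed ratio of 2 such values, with the exact (Clopper-Pearson) 95% interval of the 2 counts. The intervals cover counting error only, because each is computed from 2 counts, and no spread between cultures enters them. Copies of 1 molecule made by PCR cannot be recognised without molecular identifiers, so that the counting error itself may be larger than the intervals show. Between 18364833 and 20330055 reads per library fell on genes.

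VIPP2, the stress-responsive member of the VIPP family, which takes part in coping with membrane stress in the chloroplast, lies on chromosome 11 from 1866544 to 1871276 (NCBI v5.5 genome). Over the γ-ray series of mock, GR6 and GR50 it had 66.0, 417 and 224 CPM, from 1195, 8019 and 4511 counts. In XR6 and XR50 it had 47.1 and 36.8 CPM, from 938 and 718 counts. Both γ-ray libraries were above, and both X-ray libraries below, the mock. The log2-transformed fold change against the mock was 2.66 (95% interval 2.57 to 2.75) in GR6 and 1.76 (1.67 to 1.85) in GR50, or 6.31-fold and 3.39-fold. In XR6 it was -0.49 (-0.61 to -0.36) and in XR50 -0.84 (-0.98 to -0.71). No adjacent pair in the order of the 5 levels lay within counting error.

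VIPP1, which is needed for thylakoid membrane biogenesis and maintenance, lies on chromosome 13 from 2899024 to 2902833. It had 413, 543 and 557 CPM in the mock, GR6 and GR50, and 297 and 308 CPM in XR6 and XR50. The directions were those of VIPP2 in all 4 irradiated libraries. The sizes were smaller than for VIPP2 in GR6, GR50 and XR50, and about the same in XR6. Fold changes on the log2 scale were 0.40 in GR6, 0.43 in GR50, -0.48 in XR6 and -0.42 in XR50, and GR50 and GR6 did not differ beyond counting error. The ratio of VIPP2 to VIPP1 counts within a library, which needs no scaling between libraries, was 0.160 (95% interval 0.150 to 0.170) in the mock, 0.768 (0.745 to 0.790) in GR6 and 0.402 (0.388 to 0.416) in GR50. It was 0.159 (0.148 to 0.170) in XR6, which overlapped the mock, and 0.119 (0.11 to 0.129) in XR50.

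HSP22E and HSP22F encode small heat shock proteins of the chloroplast stroma that bind unfolding proteins. They are neighbours on chromosome 14, HSP22F from 1396617 to 1398388 and HSP22E from 1398588 to 1400061, with 199 bp between the annotated genes. HSP22E had 502 CPM in the mock, 1007.5 in GR6 and 1219.2 in GR50, and 611 and 552 CPM in XR6 and XR50. HSP22F had 406, 947 and 1156.4 CPM in the mock, GR6 and GR50, and 547 and 466 CPM in XR6 and XR50. Both genes had the same order of libraries, GR50, GR6, XR6, XR50 and mock from high to low, and every adjacent pair differed beyond counting error.

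The log2-transformed fold change of HSP22F was 1.22 (95% interval 1.18 to 1.26) in GR6 and 1.51 (1.47 to 1.55) in GR50, against 0.43 in XR6 and 0.20 in XR50. For HSP22E it was 1.28 (1.24 to 1.31) in GR50 and 1.00 (0.97 to 1.04) in GR6, so that the GR6 value sat on the 2-fold threshold. After X-rays it was 0.28 in XR6 and 0.14 in XR50. The ratio of HSP22E to HSP22F counts within a library was 1.24 in the mock, 1.06 in GR6, 1.05 in GR50, 1.12 in XR6 and 1.18 in XR50, and was thus closest to 1 where both genes were highest. The genes are close paralogs, and reads that aligned to more than 1 place were listed in a separate counter. How many of those came from this pair, and whether any were also counted on the genes, cannot be seen. This ratio, the separate values and the level of the pair are therefore all less certain than the intervals show.

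HSP22C, a further small heat shock protein, lies on chromosome 3 from 640717 to 642631 and did not follow the HSP22E and HSP22F pair. It had 62.3, 29.4 and 312 CPM in the mock, GR6 and GR50, from 1127, 566 and 6282 counts. In XR6 and XR50 it had 83.7 and 100 CPM, from 1665 and 1955 counts. GR50 was the highest of the 5 libraries and GR6 the lowest. The log2-transformed fold change against the mock was 2.32 (95% interval 2.23 to 2.42) in GR50 and -1.08 (-1.23 to -0.94) in GR6, against 0.43 in XR6 and 0.68 in XR50. Relative to HSP22E in the same library, the HSP22C count was 0.124 in the mock, 0.0292 in GR6, 0.256 in GR50, 0.137 in XR6 and 0.181 in XR50.

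HSP70B, the main HSP70 of the chloroplast stroma, lies on chromosome 6 from 135260 to 140425. It had 707, 486 and 928 CPM in the mock, GR6 and GR50, and 903 and 958 CPM in XR6 and XR50. GR6 was the only library below the mock, with a log2-transformed fold change of -0.54 (95% interval -0.58 to -0.50), and the values were 0.39 in GR50, 0.35 in XR6 and 0.44 in XR50.

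CLPB3, the chloroplast disaggregase of the ClpB family, lies on chromosome 2 from 2340618 to 2348785. It had 356, 390 and 567 CPM in the mock, GR6 and GR50, and 686 and 465 CPM in XR6 and XR50. It was the only one of the 9 genes with its highest level in XR6, at 0.95 (95% interval 0.90 to 0.99) on the log2 scale against the mock, and the values were 0.13 in GR6, 0.67 in GR50 and 0.38 in XR50. With library totals in place of TMM, all genes of XR6 moved up by 0.21 and CLPB3 passed 2-fold there. The ratio of CLPB3 to HSP70B counts was 0.504 in the mock, 0.802 in GR6, 0.611 in GR50, 0.759 in XR6 and 0.485 in XR50, and thus was higher at 6 Gy than at 50 Gy with both radiation types.

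DEG1C, a protease of the Deg family in the chloroplast stroma, lies on chromosome 12 from 3243769 to 3247710. It had 99.7, 260 and 207 CPM in the mock, GR6 and GR50, and 131 and 86.2 CPM in XR6 and XR50. The fold change on the log2 scale was 1.38 (95% interval 1.30 to 1.46) in GR6 and 1.05 (0.97 to 1.13) in GR50, against 0.39 in XR6 and -0.21 in XR50. MARS1, the kinase that is required for the signal from the chloroplast, lies on chromosome 16 from 7760047 to 7773294 and had 120, 227 and 203 CPM in the mock, GR6 and GR50, and 115 and 107 CPM in XR6 and XR50. Its fold change was 0.91 (95% interval 0.84 to 0.99) in GR6 and 0.76 (0.68 to 0.83) in GR50, whereas XR6 at -0.07 (-0.16 to 0.01) was not distinct from the mock at this depth and XR50 was at -0.17. MARS1 in XR6 turned to 0.13 with library totals.

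**Figure D2:**
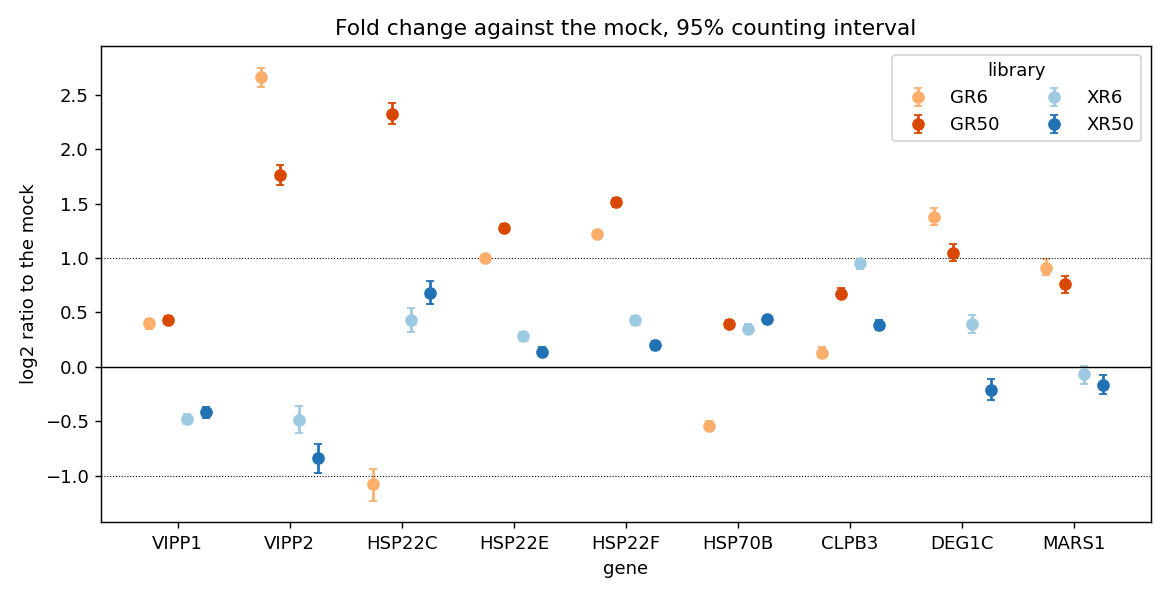
Log2-transformed ratio to the mock for each of the 9 genes in GR6, GR50, XR6 and XR50, with bars for the exact 95% counting interval and dotted lines at 2-fold. The γ-ray points of VIPP2 (2.66 in GR6 and 1.76 in GR50), HSP22F and DEG1C lie above the upper line, and no X-ray point passes a line.

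How far irradiated cells departed from the mock at each dose was described by the number of genes beyond 2-fold, without a test. In GR6, 4 of the 9 genes were more than 2-fold above the mock, against 8.05% of all 15522 genes with counts in both libraries, and 1 was more than 2-fold below it, against 5.81% of all genes. In GR50, 5 of the 9 were above, against 14.1% of all genes, and 0 were below, against 9.34%. In XR6, 0 were above (8.61% of all genes) and 0 below (5.13%), and in XR50 0 were above (6.67%) and 0 below (5.0%). The median fold change of the 9 genes on the log2 scale was 0.91 in GR6, 1.05 in GR50, 0.35 in XR6 and 0.14 in XR50, against medians of all genes between -0.03 and 0.00. All 4 comparisons share the mock library.

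A model with dose and radiation type as additive terms was then fitted to the 4 irradiated libraries over 14112 genes. With 1 residual degree of freedom, the dose-by-type interaction, pooled over all genes as a trend, stood in for replicate error. No gene-specific variance was estimated in this main fit, so that a gene's own interaction did not widen its error. The p-values therefore set each gene against this trend and not against the spread between cultures. All tests below are edgeR's quasi-likelihood tests with Benjamini-Hochberg adjustment over these genes. A type effect at an adjusted p under 0.05 was found for 6 of the 9 genes, all higher after γ-rays, against 6.14% of all genes higher and 3.87% lower after γ-rays. The type effect of VIPP2 was 2.88 on the log2 scale (standard error 0.319, adjusted p = 1.38e-16), or 7.34-fold, and only 36 of the 14112 genes had a larger one. It was higher in γ-irradiated cells at both doses, by 3.14 (95% interval 3.05 to 3.24) for GR6 over XR6 and by 2.61 (2.49 to 2.72) for GR50 over XR50.

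At the single doses, 1 of the 9 genes was more than 2-fold higher and 1 more than 2-fold lower in GR6 than in XR6, against 9.05% and 9.3% of all genes, and 5 were higher and 0 lower in GR50 than in XR50, against 12.6% and 9.04%. DEG1C and MARS1, both at 0.99 on the log2 scale for GR6 over XR6, lay just within 2-fold. With the size factors of DESeq2, the number of dose and type steps beyond 2-fold was 10 instead of 8.

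The other type effects were about 2-fold. DEG1C had 1.12 (standard error 0.301, adjusted p = 0.0041 in edgeR), and HSP22F had 1.05 (adjusted p = 0.00609 in edgeR). MARS1 had 0.96 (adjusted p = 0.0202 in edgeR), HSP22E 0.93 (adjusted p = 0.0188 in edgeR) and VIPP1 0.86 (adjusted p = 0.0345 in edgeR). For each of these 5 genes, γ-irradiated cells were higher at both doses beyond counting error. VIPP1 was closest to the threshold and missed it in 5 of 7 alternative settings, with an adjusted p of up to 0.0804 over the settings of edgeR and DESeq2. VIPP2 and HSP22F passed in all 7, HSP22E missed it with the Wald test of DESeq2 (adjusted p = 0.0554), and DEG1C (0.0631) and MARS1 (0.0507) missed the adjusted p in edgeR when type was fitted without dose.

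HSP70B had a type effect of -0.47 (standard error 0.291, adjusted p = 0.387 in edgeR) and CLPB3 of -0.26 (standard error 0.294, adjusted p = 0.71 in edgeR), neither of which passed. In both genes the difference between the γ-ray and X-ray libraries was unlike at 6 and 50 Gy beyond counting error, which was not tested. HSP70B was lower in GR6 than in XR6 by a log2 value of -0.89 (95% interval -0.93 to -0.86), and -0.05 (-0.07 to -0.02) separated GR50 from XR50. CLPB3 was at -0.81 (-0.86 to -0.77) in GR6 relative to XR6, and at 0.29 (0.25 to 0.33) in GR50 relative to XR50. HSP22C had a type effect of 0.08 (standard error 0.346, adjusted p = 0.943 in edgeR), which averaged -1.51 (-1.65 to -1.37) for GR6 over XR6 and 1.64 (1.57 to 1.71) for GR50 over XR50.

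**Figure D3:**
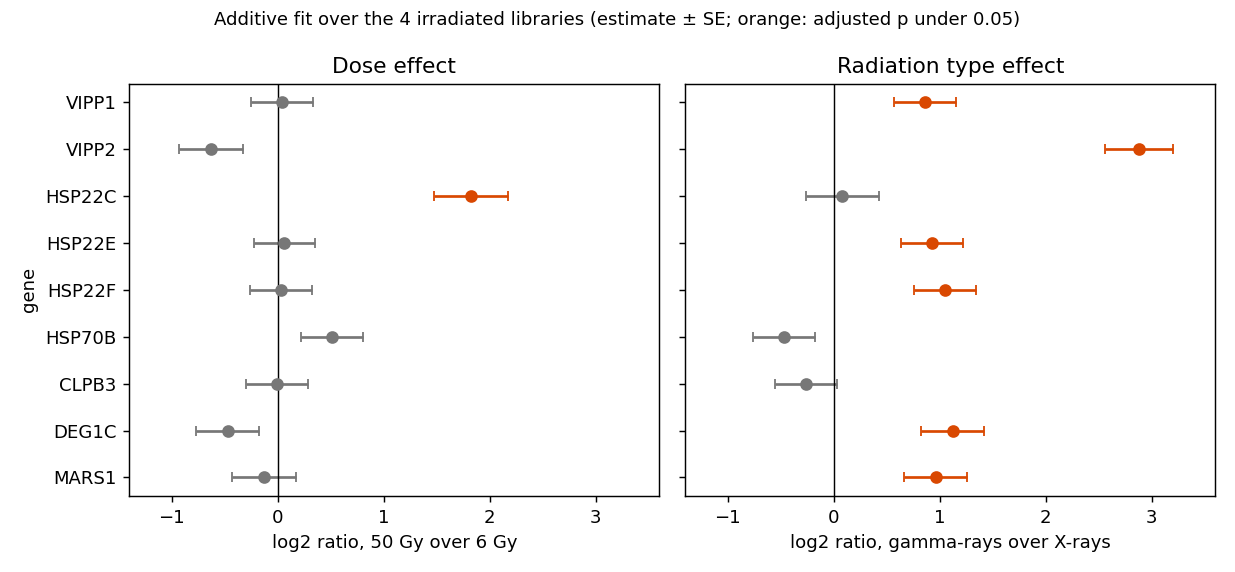
Dose effect (50 Gy over 6 Gy, left) and radiation type effect (γ-rays over X-rays, right) of the 9 genes on the log2 scale from the additive model of the 4 irradiated libraries, with bars for the standard error and orange for an adjusted p under 0.05. HSP22C alone is orange for dose (1.82), and 6 genes are orange for type, with VIPP2 farthest right (2.88).

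Of the 9 genes, 1 passed the test for dose, HSP22C, against 1.84% of all genes higher and 0.0354% lower at 50 Gy. Its dose effect was 1.82 on the log2 scale (standard error 0.349, adjusted p = 6.36e-05 in edgeR), or 3.54-fold, and 59 of the 14112 genes had a larger one. HSP22C was higher at 50 Gy with both radiation types, but by 3.41 (95% interval 3.28 to 3.53) for GR50 over GR6 and by 0.26 (0.16 to 0.35) for XR50 over XR6. The dose effect is therefore an average of unlike steps. It did not pass with library totals, with the Wald test of DESeq2 or with dose fitted alone, where the adjusted p reached up to 1. With the size factors of DESeq2 (adjusted p = 0.0467 in edgeR) and with thinned libraries (adjusted p = 0.0488 in edgeR) it passed only narrowly. The log2 effect itself lay between 1.74 and 1.86 over the 7 alternatives. VIPP2 had a dose effect of -0.63 (standard error 0.3), with an unadjusted p of 0.0349 and an adjusted p of 0.629 in edgeR. The remaining 7 genes had dose effects between -0.47 for DEG1C and 0.51 for HSP70B, and the median over the 9 genes was 0.03, against -0.02 for all genes.

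Within γ-rays, HSP22C was the only one of the 9 genes with a step of more than 2-fold, against 9.87% of all genes above and 5.60% below 2-fold from GR6 to GR50. HSP70B came next, with 0.93 (95% interval 0.90 to 0.97), and CLPB3 had 0.54 (0.50 to 0.58). VIPP2 was lower in GR50 than in GR6, at -0.90 (-0.95 to -0.84), and DEG1C at -0.33 and MARS1 at -0.16 were lower as well. VIPP1 did not differ between GR50 and GR6 beyond counting error, at 0.04.

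Within X-rays, 0 of the 9 genes had a step of more than 2-fold, against 4.72% of all genes above and 4.66% below. The largest steps from XR6 to XR50 were -0.60 (95% interval -0.69 to -0.51) in DEG1C and -0.56 (-0.60 to -0.52) in CLPB3, followed by VIPP2 at -0.36. HSP22E at -0.14 and HSP22F at -0.23 were also lower in XR50, although both were higher in GR50 than in GR6, at 0.28 and 0.29. The steps of VIPP1 (0.05) and HSP70B (0.08) from XR6 to XR50 turned to -0.09 and -0.06 with library totals.

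**Figure D4:**
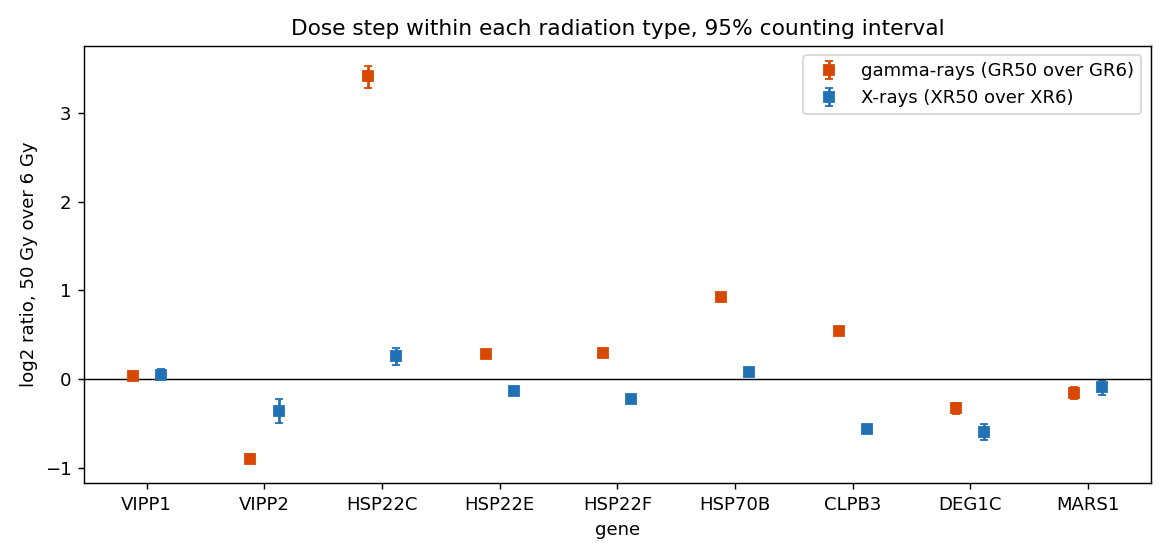
Dose step of each of the 9 genes on the log2 scale, GR50 over GR6 and XR50 over XR6, with bars for the exact 95% counting interval. HSP22C stands at 3.41 after γ-rays and 0.26 after X-rays, and the 2 steps of CLPB3, HSP22E and HSP22F lie on opposite sides of 0.

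The difference between the γ-ray and the X-ray step was largest for HSP22C, at 3.15 on the log2 scale (95% interval of the counts 2.99 to 3.30), followed by CLPB3 with 1.10 (1.04 to 1.16) and HSP70B with 0.85 (0.80 to 0.90). It was 0.52 for HSP22F, 0.42 for HSP22E, 0.27 for DEG1C and -0.54 for VIPP2, all beyond counting error. For VIPP1 at -0.02 (-0.08 to 0.05) and MARS1 at -0.06 (-0.17 to 0.04), no difference was detectable at this depth. These differences are the dose-by-type interaction, which the additive fit leaves out and uses only pooled over all genes as error. They were therefore not tested for single genes.

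**Figure D5:**
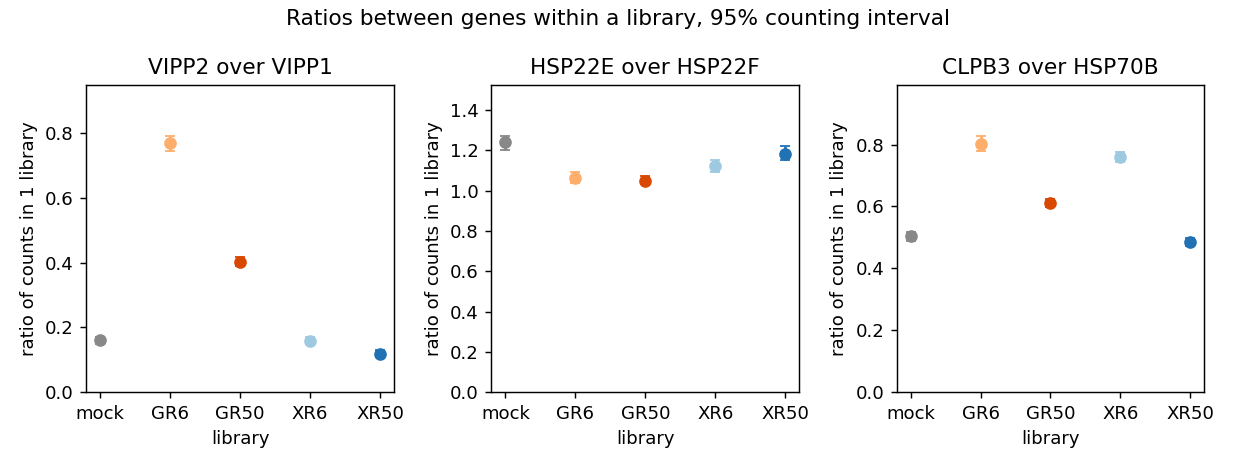
Ratio of the counts of VIPP2 to VIPP1, HSP22E to HSP22F and CLPB3 to HSP70B within each of the mock, GR6, GR50, XR6 and XR50 libraries, with bars for the exact 95% counting interval. The ratio depends on the lengths of the genes and is to be compared between libraries only. VIPP2 to VIPP1 was 0.768 in GR6 and 0.402 in GR50 against 0.160 in the mock.

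VIPP2 had the widest range of the 9 genes over the 5 libraries, 3.5 on the log2 scale. Among 10755 other genes that averaged 50 counts or more, those with the most similar fold changes to the mock over the 4 irradiated libraries were CHLRE_06g298750v5 (chromosome 6, 7302691 to 7308284) and CHLRE_17g733678v5 (chromosome 17, 4769053 to 4770794), at root mean square differences of 0.29 and 0.31 on the log2 scale. CHLRE_06g298750v5 had 2.27 in GR6, 2.08 in GR50, -0.76 in XR6 and -0.97 in XR50. The values of CHLRE_17g733678v5 were 2.08, 1.68, -0.38 and -0.64 in the same order, from 117 counts in GR6 against 26 in the mock. The reference names neither gene.

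A further list of 10 loci, drawn up as candidates for other chloroplast chaperones and proteases, carries only locus tags in the reference, so that no name or role is given to a locus. In edgeR's quasi-likelihood test, 1 of the 10 was higher and 3 were lower after γ-rays than after X-rays at an adjusted p under 0.05, against 6.14% of all genes higher and 3.87% lower. The higher one was CHLRE_12g485800v5 (1.16 on the log2 scale, adjusted p = 0.00196 in edgeR), with 11060 counts in GR6 and 17864 in GR50, and 6524 in XR6 and 6061 in XR50. The lower ones were CHLRE_04g231222v5 (-1.45), CHLRE_07g339150v5 (-1.45) and CHLRE_17g741450v5 (-0.94, adjusted p = 0.0357 in edgeR). For CHLRE_07g339150v5 these values rest on 2590 counts in GR6 and 3021 in GR50, and on 7929 in XR6 and 7404 in XR50, against 5716 in the mock. A dose effect was found for 0 of the 10, also at an unadjusted p under 0.05 and with the Wald test of DESeq2, against 1.84% of all genes higher and 0.0354% lower at 50 Gy. The median type effect was -0.20 for the 10 loci and 0.93 for the 9 genes, against 0.01 for all genes tested.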

How the data were processed

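Total RNA was sequenced as stranded paired-end libraries, and 1 column of counts for each of 5 conditions was analysed. Per the methods and processing notes, the authors used Trimmomatic 0.36 for trimming, HISAT2 2.2.1 for mapping (NCBI v5.5 genome) and HTSeq 0.11.3 for counting per gene. The deposited values are raw counts of 17742 genes. Whether strand was used in counting is not given in the sources used here. The 5 counters of unassigned reads were left out of the library totals, so that between 49.3% and 55.9% of the listed reads were used.

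TMM factors, filterByExpr with the dose groups and the quasi-likelihood tests (glmQLFit, glmQLFTest) were from edgeR 4.0.16 under R 4.3.3. In the main fit (TMM factors, both terms, full counts), the variance of each gene came from the trend over all genes. No gene-specific variance was estimated there (infinite prior degrees of freedom). For the alternative settings this was not recorded. Whether a change of p under an alternative came from the scaling or from the error used was not tested. Standard errors of the effects were derived from the test, as the absolute log2 effect over the square root of the F statistic. Intervals were computed with scipy 1.17.1 and tables with pandas 2.3.3. The threshold was an adjusted p of 0.05 for tests and 2-fold for ratios. Background shares covered the genes detected in both libraries of a ratio (1 count or more).

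The members and lists were chosen with earlier results of these data known. The named genes were the 9 members, the loci of the further list and the 2 genes most like the member with the widest range. Alternatives were library totals, the size factors and Wald test of DESeq2 1.42.0, and each factor alone. Further ones were a filter of at least 1 count in any irradiated library, a prior count of 1, 1.5-fold and thinned libraries. Bias-adjusted quasi-likelihood was added after seeing the data. Sequences were not analysed here.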

Additional observations from a re-analysis of the deposited data

Results flagged for a closer look

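In 2 genes, both libraries of one radiation type moved one way from the mock and both of the other type the opposite way, beyond counting error. How large a share of all genes shows this pattern was not counted, so whether this number is unusual cannot be said. VIPP2 was at 2.66 in GR6 and 1.76 in GR50, and at -0.49 in XR6 and -0.84 in XR50, on the log2 scale against the mock. VIPP1 was at 0.40 in GR6 and 0.43 in GR50, and at -0.48 in XR6 and -0.42 in XR50. All of these values share the mock, and whether the responses to the radiation types differ from the mock was not tested. The contrast between the types themselves was tested, as given above.

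In 3 genes, the step from 6 to 50 Gy had opposite directions after γ-rays and X-rays, beyond counting error. The share of all genes with such opposite steps was not counted, so whether this number is unusual cannot be said. Counting error is a low bar at these counts, as the step of -0.14 in HSP22E passed it. CLPB3 was at 0.54 for GR50 over GR6 and at -0.56 for XR50 over XR6. HSP22F was at 0.29 and HSP22E at 0.28 for GR50 over GR6, against -0.23 and -0.14 for XR50 over XR6. These differences were not tested, since the additive fit used the dose-by-type interaction, pooled over all genes, as error.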

How the results depend on the processing

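The number of the 9 genes with a dose effect was 1, and it was 0 with library totals, with the Wald test of DESeq2 and with dose fitted alone (2, 0 and 1 genes at an unadjusted p under 0.05). The number with a type effect was 6, and it was 3 with type fitted alone and between 4 and 6 in the other settings. With library totals, the number above 2-fold was 1 instead of 0 in XR6 and 5 instead of 4 in GR6. The number below 2-fold in GR6 was then 0 instead of 1. At 1.5-fold, 1 gene was above in XR6, 1 above in XR50 and 1 below in XR50, against 0 each at 2-fold. The number above was then 5 in GR6 and 7 in GR50, against 4 and 5 at 2-fold. The share of all genes beyond 1.5-fold was not counted. Library totals shifted every ratio to the mock upwards by 0.11 (GR6), 0.08 (GR50), 0.21 (XR6) and 0.06 (XR50) on the log2 scale, and turned the sign of 1 of 36 ratios to the mock and 2 of 36 steps, whereas size factors of DESeq2 and thinning turned none of these. No gene beyond 2-fold changed direction under an alternative. For the 10 further loci, 4 type effects and 0 dose effects were found, and 3 or 4 and 0 in the alternatives. The search for relatives of the 9 genes by protein sequence was not run, because no protein table was used here. No paired analysis was possible because each condition has 1 library. Without replicates, a difference between libraries cannot be separated from variation between cultures.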

Other observations

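The gene 140 bp from VIPP1 on chromosome 13, CHLRE_13g583600v5, had log2-transformed ratios to the mock of 0.77 in GR6, 0.86 in GR50, -0.44 in XR6 and -0.30 in XR50, with 11472 and 12791 counts in GR6 and GR50, and 5129 and 5547 in XR6 and XR50, against 6308 in the mock. It was noticed after its values were seen. CHLRE_02g090750v5, 89 bp from CLPB3 and likewise noticed afterwards, had 124 counts in GR6 and 369 in GR50, and 543 in XR6 and 555 in XR50, against 331 in the mock. None of the 9 genes overlaps another annotated gene, but the nearest ones lie 1 bp from HSP22E, 2 bp from DEG1C, 5 bp from CLPB3 and 6 bp from HSP22F, and how reads spanning such a boundary were assigned was not tested.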
